A study of Mus musculus with 12 samples.

Results

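The 10 genes described here encode the ligands, receptors and SMADs of transforming growth factor-β (TGF-β) signalling: the ligands Tgfb1, Tgfb2 and Tgfb3, the receptors and co-receptors Tgfbr1, Tgfbr2, Tgfbr3 and Eng, and the SMADs Smad3, Smad6 and Smad7. They were taken by gene symbol from the 52636 genes of each table, and each symbol matched a single row in both. RNA-seq had been done on 12 libraries, 3 in each of 4 groups. Murine airway smooth muscle cells (SMCs) were commercial cells of C57BL/6 origin. The methods call them primary, the titles lung airway SMCs and the source field tracheal. These SMCs received scrambled RNA (Scr) or siKlf4, a small interfering RNA against Klf4. PDGFR-β+ cells received the same 2 treatments. In both cell types the genotype label is WT for Scr and Klf4 KD for siKlf4 samples. The PDGFR-β+ cells are labelled as lung cells of 12-week-old C57BL/6 mice, whereas the methods describe a sort of lung cells carrying the Zs reporter, from mice of genotype Pdgfrb-CreERT2, ROSA26R(Zs/+) given tamoxifen beforehand, so the sort rests on past activity of the Pdgfrb promoter. All groups were cultured cells given 50 nM RNA for 6 h after 2 h of serum starvation and kept for 72 h, so no group is untransfected. The methods speak of 3 independent experiments, but nothing ties replicates to separate animals, and p-values measure the spread between these libraries.

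TGF-β ligands are secreted as latent complexes held in the extracellular matrix, and integrins and proteases release them. Active ligand binds the type II receptor Tgfbr2, which phosphorylates the type I receptor Tgfbr1, and Tgfbr1 in turn phosphorylates SMAD2 and SMAD3, which enter the nucleus with SMAD4. Tgfbr3 (betaglycan) and Eng (endoglin) are co-receptors, and Smad6 and Smad7 are inhibitory SMADs that damp signalling in the TGF-β superfamily. In lung mesenchyme this pathway is a well-known inducer of smooth muscle and matrix genes.

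Klf4, the targeted gene, went the way of the labels in every library. Its level in TPM (transcripts per 1000000, a length-corrected level) was 89.6, 96.3 and 95.03 in Scr SMCs against 26.5, 16.3 and 18.8 in siKlf4 SMCs, and 134 to 146 against 12.3 to 13.8 in PDGFR-β+ cells. Depth is not kept in TPM and is unknown here; 20590 to 21780 genes were above 0 in a library. In the SMC table, 1 Scr and 1 siKlf4 library carry no replicate number and a different style of name. For 7 of the 10 genes these libraries stood at the same end of both SMC groups: they were the lowest of their group for Tgfb1, Eng and Smad7 and the highest for Tgfb2, Tgfb3, Tgfbr2 and Tgfbr3. SMC results are therefore also given for the 4 numbered libraries alone. Of 9 smooth muscle markers, 8 reached 1 TPM in each group, and their summed level was 1509 to 2299 TPM in Scr SMCs, 3432 to 4204 in siKlf4 SMCs, 5577 to 6428 in Scr PDGFR-β+ cells and 4736 to 5039 in siKlf4 PDGFR-β+ cells. In this sum every library labelled SMC thus stood below any library labelled PDGFR-β+, and the marker Myocd stayed under 1 TPM throughout. Most of the sum was Acta2 and Tagln, averaging 1373 and 425.4 TPM in Scr SMCs against 4369 and 1505 TPM in Scr PDGFR-β+ cells. The other markers did not all follow it. Myh11 averaged 49.24 TPM in siKlf4 SMCs against 33.43 TPM in siKlf4 PDGFR-β+ cells, and Smtn 106.6 against 77.25 TPM. Under Scr both averaged lower in SMCs (15.64 against 20.77 TPM and 59.45 against 62.27 TPM). Pdgfrb itself averaged 447 TPM in Scr PDGFR-β+ cells and 214 TPM in Scr SMCs. It is 1 of 10 markers of PDGFR-β+ mesenchyme, whose sums overlapped between the cell types. These sums were 3447 to 3571 TPM in Scr SMCs and 2865 to 3554 TPM in Scr PDGFR-β+ cells. Within that list, Pdgfra (417 against 169 TPM), Dcn (409 against 71.2 TPM) and Col3a1 (1345 against 597.5 TPM) averaged higher in Scr SMCs. So did Notch3 (17.2 against 7.73 TPM), Kcnj8 (1.85 against 0.051 TPM) and Abcc9 (1.325 against 0.038 TPM). Col1a1 (1108 against 1937 TPM), Cspg4 (5.29 against 26.9 TPM) and Rgs5 (1.23 against 2.27 TPM) averaged lower in Scr SMCs, as did Pdgfrb.

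In short, siKlf4 moved the ligand Tgfb1 and the receptor Tgfbr1 upwards in SMCs and downwards in PDGFR-β+ cells, raised Tgfb3 in both, and lowered Tgfb2, Tgfbr2 and Tgfbr3 in PDGFR-β+ cells. In SMCs, 5 of the 10 genes passed the threshold (limma on log2(TPM + 1), adjusted p under 0.05 by Benjamini-Hochberg over all 13709 genes tested), all 5 higher, where 28.5% of all genes tested passed, 15.6% higher and 12.9% lower. Among PDGFR-β+ libraries, 6 of 10 passed, 1 higher and 5 lower, where 40.6% of the 13694 genes tested passed, 25.3% higher and 15.3% lower. The median log2 fold change of the 10 genes was 0.28 for SMCs and -0.13 for PDGFR-β+ cells, beside 0.02 and 0.10 over the tables tested. Every fold change given is a difference in log2(TPM + 1), a scale that understates the change of low genes. Median-ratio scaling moved the median of all PDGFR-β+ genes from 0.10 to 0.00 and the share of higher genes among those called from 62.3% to 47.0%, with the counts of the 10 genes still 1 higher and 5 lower. Libraries of the 2 treatments did not overlap for 7 of 10 genes in each cell type, beside 47.1% of all genes tested for SMCs and 53.8% for PDGFR-β+ cells. With the 4 numbered SMC libraries alone, 8 of 10 passed, with Tgfb2, Tgfbr2 and Tgfbr3 added on the lower side, where 28.9% of genes passed and 13.3% were lower. The same 8 passed with a term for the naming of the columns in the fit of all 6 SMC libraries, where 40.1% of genes passed.

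**Figure D1:**
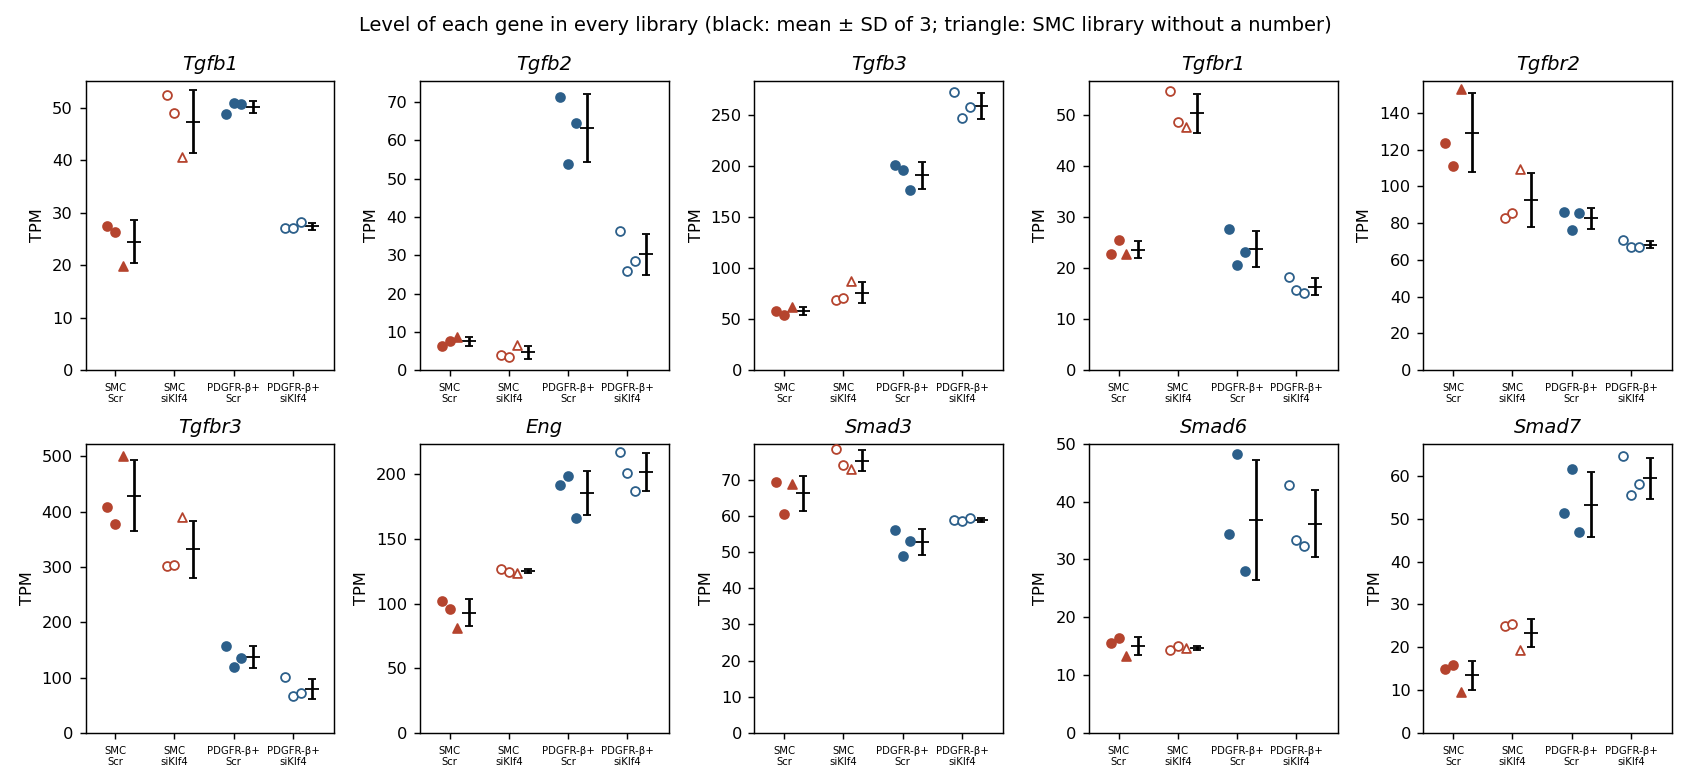
Level of the 10 genes in TPM (vertical axis, from 0) in each of the 12 libraries, by cell type and treatment. Circles and triangles are single libraries, triangles being the 2 SMC libraries without a replicate number, and black bars give the mean ± SD of 3. Tgfb1 rose from 24.5 to 47.4 TPM on average in SMCs and fell from 50.2 to 27.4 TPM in PDGFR-β+ cells.

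**Figure D2:**
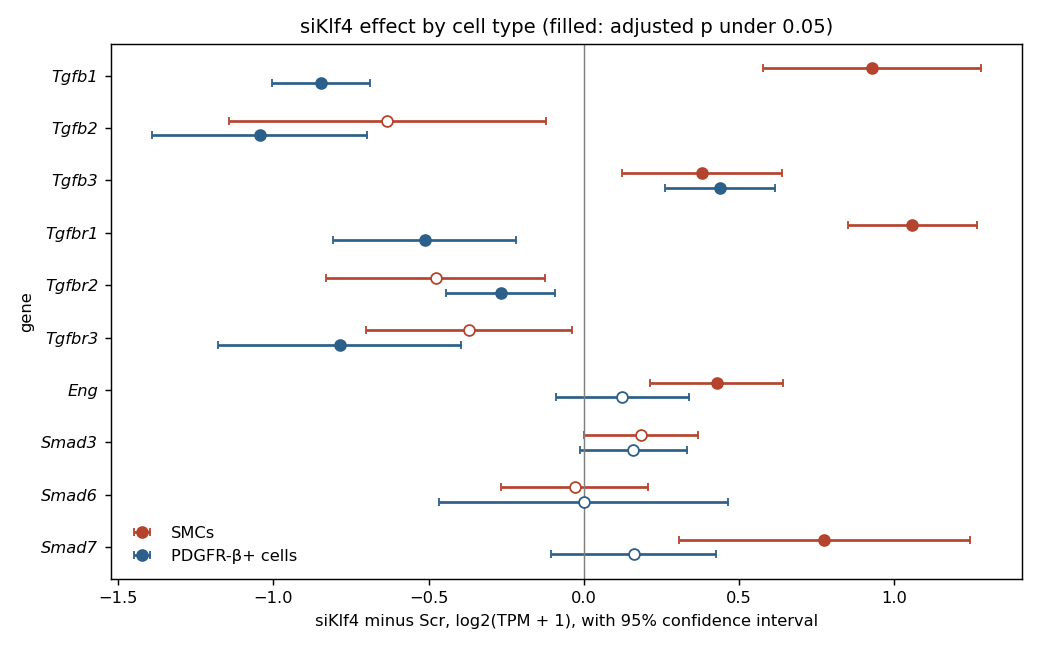
Difference between siKlf4 and Scr in log2(TPM + 1) (horizontal axis) with its 95% confidence interval, for each gene and cell type. Filled points passed an adjusted p of 0.05. Tgfb1 and Tgfbr1 have filled points on opposite sides of 0.

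Before treatment effects, the cell types differed in level. Among Scr libraries, 9 of 10 genes did not overlap between SMCs and PDGFR-β+ cells, beside 57.1% of the 12854 genes whose Scr mean reached 1 TPM in both tables. These levels come from separate tables and the cell type goes with source and culture, so they are given as a description with no test. All 3 ligands were higher in Scr PDGFR-β+ cells, by 2.05-fold for Tgfb1, 8.39-fold for Tgfb2 and 3.29-fold for Tgfb3, as were Smad7 (3.97-fold), Smad6 (2.45-fold) and Eng (1.99-fold). Tgfbr3 (3.12-fold), Tgfbr2 (1.56-fold) and Smad3 (1.26-fold) were higher in Scr SMCs. Tgfbr1 was the exception, at 23.6 ± 1.59 TPM in Scr SMCs and 23.8 ± 3.56 TPM in Scr PDGFR-β+ cells (mean ± SD, n = 3).

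The order of the levels differed too. In Scr SMCs, Tgfbr3 led at 429 ± 64.3 TPM, followed by Tgfbr2 (129 TPM), Eng (93.2 TPM), Smad3 (66.2 TPM), Tgfb3 (58.1 TPM), Tgfb1 (24.5 TPM), Tgfbr1 (23.6 TPM), Smad6 (15.1 TPM), Smad7 (13.4 TPM) and Tgfb2 (7.53 TPM). Neighbours in that order overlapped in their libraries for Smad3 and Tgfb3, for Tgfb1 and Tgfbr1, and for Smad6 and Smad7. In Scr PDGFR-β+ cells, Tgfb3 (191 TPM) and Eng (185 TPM) led and overlapped each other. Tgfbr3 (137 TPM) and Tgfbr2 (82.6 TPM) came next, then Tgfb2 (63.2 TPM), Smad7 (53.4 TPM), Smad3 (52.7 TPM) and Tgfb1 (50.2 TPM), in which each overlapped the next, and last Smad6 (36.9 TPM) and Tgfbr1. The betaglycan transcript was the most abundant of the 10 in every Scr SMC library, whereas in Scr PDGFR-β+ cells Eng exceeded Tgfb3 in replicate 2.

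The ligand Tgfb1 (ENSMUSG00000002603.15, mm10 chromosome 7, 25687002 to 25705077, plus strand) is the form most studied in fibrosis. In SMCs its level was 19.8, 27.5 and 26.3 TPM under Scr and 40.6, 52.4 and 49.1 TPM under siKlf4, the first value of each being the library without a number. Every siKlf4 library lay above every Scr library, a log2 fold change of 0.93 ± 0.15 (SE; adjusted p = 0.00559, limma). The change was 0.89 with the numbered libraries alone (adjusted p = 0.00399) and 1.00 between the 2 libraries without a number. In PDGFR-β+ cells the level was 48.8, 51.0 and 50.7 TPM under Scr and 27.1, 27.1 and 28.2 TPM under siKlf4. Here every siKlf4 library lay below every Scr library, by a log2 fold change of -0.85 ± 0.07 (adjusted p = 0.000107). The adjusted p was at most 0.0253 in SMCs and 0.00121 in PDGFR-β+ cells over the alternatives tried. Its level under siKlf4 in SMCs (47.4 ± 6.06 TPM) overlapped that of Scr PDGFR-β+ cells.

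Tgfbr1 (ENSMUSG00000007613.15, mm10 chromosome 4, 47353222 to 47414931, plus strand), the type I receptor kinase, went the same way as Tgfb1 in each cell type. In SMCs it stood at 22.8, 22.7 and 25.5 TPM under Scr and 47.7, 54.7 and 48.6 TPM under siKlf4, with the groups far apart. Its log2 fold change of 1.06 ± 0.09 (adjusted p = 0.000928, limma) was the only one of the 10 in SMCs to reach a size of 1, and 3.40% of all genes tested changed by more. It was 1.07 with the numbered libraries alone and 1.04 between the libraries without a number. In PDGFR-β+ cells the values were 27.6, 20.6 and 23.2 TPM under Scr and 18.2, 15.7 and 15.0 TPM under siKlf4. No library overlapped, at a log2 fold change of -0.51 ± 0.13 (adjusted p = 0.0151), but the adjusted p was 0.0513 without siKlf4 replicate 2 and 0.0529 without siKlf4 replicate 3.

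The difference between the cell types was tested by the interaction term over 12 libraries. It was past the threshold for 2 of 10 genes, Tgfb1 (1.78 ± 0.17 log2 units, SMC minus PDGFR-β+; adjusted p = 2.5e-05, limma) and Tgfbr1 (1.57 ± 0.16; adjusted p = 3.49e-05), where 33.0% of the 13032 genes tested passed. These were also the 2 genes called higher in the one cell type, SMCs, and lower in the other, a pattern found in 2.35% of those genes. That share covers this direction alone, which was taken from these 2 genes, and leaves out the reverse pattern. For Smad7 the difference was 0.61 (95% confidence interval 0.07 to 1.15, adjusted p = 0.0759) and for Eng 0.30 (0.01 to 0.60, adjusted p = 0.0998), neither past the threshold. For Tgfb2 it was 0.41 (-0.20 to 1.02), for Tgfbr3 0.42 (-0.11 to 0.94) and for Tgfbr2 -0.21 (-0.60 to 0.18), and each of these intervals includes a difference as large as the change in SMCs.

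Promoter windows are shown for Tgfb1 and Tgfbr1, which moved together in each cell type, and for Tgfb2, which was lower under siKlf4 in PDGFR-β+ cells. Each is the 250 bases before the transcript start, from RefSeq (GRCm38.p6, the build of mm10), 5′ to 3′ along the gene. Capitals mark each CACCC, a core that KLF-family factors are known to bind, and each GGGCGG (GC box), in either orientation, and neighbouring matches may adjoin.
Tgfb1 promoter, chr7:25686752-25687001, plus strand: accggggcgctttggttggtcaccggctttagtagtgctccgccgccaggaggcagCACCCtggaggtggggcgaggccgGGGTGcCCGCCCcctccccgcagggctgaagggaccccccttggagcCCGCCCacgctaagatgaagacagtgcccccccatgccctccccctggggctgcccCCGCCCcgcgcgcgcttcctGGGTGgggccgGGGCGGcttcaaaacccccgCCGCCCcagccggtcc
Tgfbr1 promoter, chr4:47352972-47353221, plus strand: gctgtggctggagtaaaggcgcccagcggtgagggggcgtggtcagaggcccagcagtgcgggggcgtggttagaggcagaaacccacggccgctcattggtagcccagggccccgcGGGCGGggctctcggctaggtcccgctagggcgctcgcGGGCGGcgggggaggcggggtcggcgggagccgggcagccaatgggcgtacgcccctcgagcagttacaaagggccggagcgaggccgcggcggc
Tgfb2 promoter, chr1:186705990-186706239, minus strand: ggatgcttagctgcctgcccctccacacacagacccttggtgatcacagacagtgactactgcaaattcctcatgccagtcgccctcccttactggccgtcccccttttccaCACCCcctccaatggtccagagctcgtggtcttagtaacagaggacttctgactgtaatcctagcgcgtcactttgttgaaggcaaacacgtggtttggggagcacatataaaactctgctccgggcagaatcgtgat
The Tgfb1 window held 3 CACCC and 5 GC boxes, that of Tgfbr1 0 and 2, and that of Tgfb2 1 and 0, at a GC content of 75.2%, 74.8% and 53.6%. Of the other genes with an entry, Eng had 4 CACCC and no GC box, Tgfbr2 had 1 and 0, Smad3 had 0 and 2, and Smad6 had 1 and 4. Of 32851 such windows, 52.0% held at least 1 CACCC and 32.7% at least 1 GC box. At least 3 CACCC were held by 6.92% of windows and at least 4 by 2.14%. Shares for higher counts of GC boxes are not given here. A match is a run of letters, and no binding was measured in these data.

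The genes whose profile was most like that of Tgfb1 over the 12 libraries, by the root mean square difference of log2(TPM + 1) centred on each gene's own mean, were Hk2 (0.11), a hexokinase of glycolysis, Ncam1 (0.13), a cell adhesion molecule, and Egr1 (0.14), an immediate early transcription factor, among 13032 genes compared. Hk2 averaged 27.9 and 54.4 TPM in Scr and siKlf4 SMCs and 57.7 and 35.4 TPM in Scr and siKlf4 PDGFR-β+ cells.

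Tgfb2 (ENSMUSG00000039239.14, mm10 chromosome 1, 186622792 to 186705989, minus strand) fell in PDGFR-β+ cells, from 71.3, 53.7 and 64.5 TPM to 36.2, 25.9 and 28.5 TPM. The groups did not overlap, and the log2 fold change of -1.04 ± 0.15 (adjusted p = 0.00142, limma) was the only one of the 10 in that cell type to reach a size of 1. In SMCs its level was low, at 8.62, 6.43 and 7.54 TPM under Scr and 6.53, 3.96 and 3.38 TPM under siKlf4. The siKlf4 library without a number (6.53 TPM) lay above the lowest Scr library, and the log2 fold change was -0.63 ± 0.22 (adjusted p = 0.0676). It was -0.77 with the numbered libraries alone (adjusted p = 0.0222, or 0.0514 with the replicate number as a block) and -0.35 between the libraries without a number.

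Tgfb3 (ENSMUSG00000021253.7, mm10 chromosome 12, 86056745 to 86079041, minus strand) rose in both cell types. In PDGFR-β+ cells it went from 201, 196 and 176 TPM to 273, 247 and 258 TPM, the highest level of any of the 10 genes there, at a log2 fold change of 0.44 ± 0.08 (adjusted p = 0.00339, limma). In SMCs it went from 62.4, 58.1 and 53.8 TPM to 87.9, 69.2 and 71.3 TPM, at 0.38 ± 0.11 (adjusted p = 0.0394). Both comparisons were free of overlap. The SMC call was lost in 4 of 10 alternatives and when any single library other than the Scr library without a number was left out, with an adjusted p of up to 0.110. Ttll5 overlaps Tgfb3 on the opposite strand at 9.35 TPM in Scr PDGFR-β+ cells, and whether the counting used strand is not stated.

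Within a library, the ligands changed place. Tgfb1 made up 21.8, 29.9 and 30.0% of the summed ligand TPM in Scr SMCs and 30.1, 41.7 and 39.6% in siKlf4 SMCs. In PDGFR-β+ cells its share was 15.2, 17.0 and 17.4% under Scr and 8.05, 9.01 and 8.97% under siKlf4, so its share and its level moved the same way. The Tgfb2 share was lower under siKlf4 in both cell types, at 3.57 ± 1.11% against 8.37 ± 1.27% in SMCs and 9.49 ± 1.14% against 20.7 ± 2.47% in PDGFR-β+ cells (mean ± SD, n = 3). The Tgfb3 share of PDGFR-β+ cells was 81.8 ± 0.61% under siKlf4 against 62.8 ± 2.34% under Scr, and in SMCs the groups overlapped at 59.3 ± 5.18% and 64.4 ± 3.83%. The summed ligand level was 90.1 ± 2.30 TPM under Scr and 128 ± 6.09 TPM under siKlf4 in SMCs, with no overlap, and 305 ± 15.3 and 317 ± 17.9 TPM in PDGFR-β+ cells, with overlap. Where these groups did not overlap, the two-sided exact permutation p was 0.1, the smallest that 3 libraries against 3 can give, so no such test can pass 0.05.

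**Figure D3:**
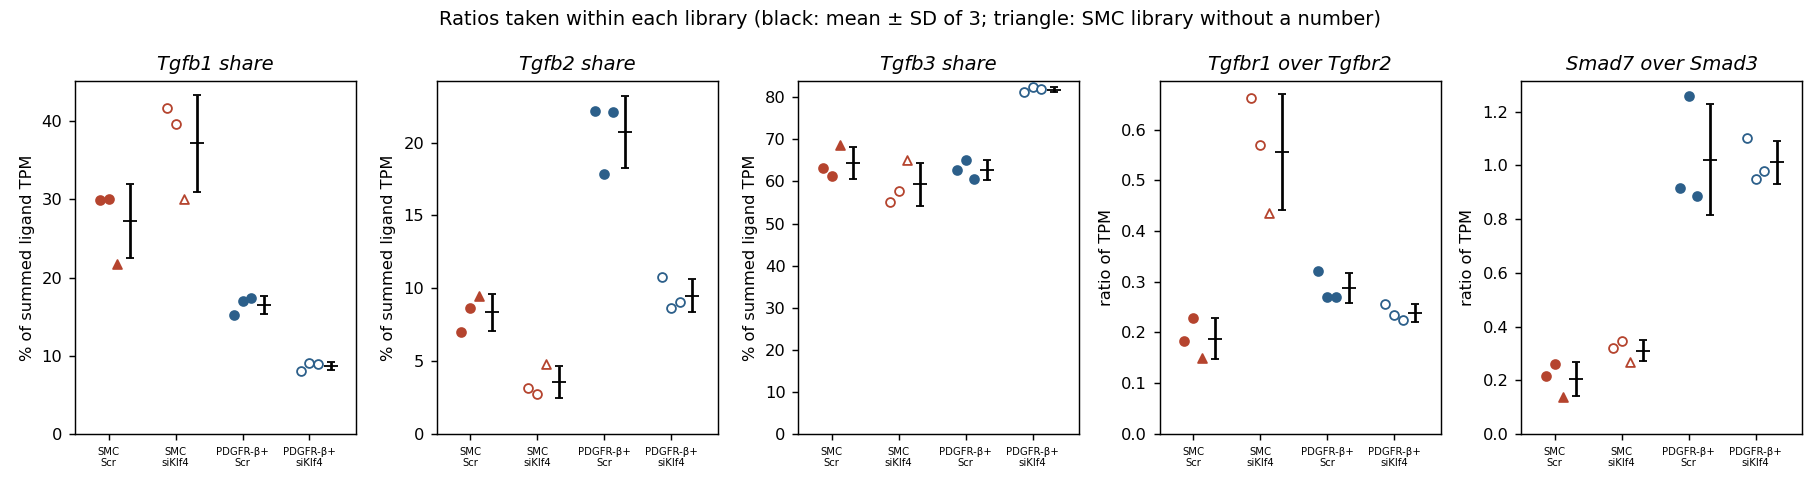
Ratios taken within each library, which do not depend on how libraries were scaled: the share of each ligand in the summed TPM of Tgfb1, Tgfb2 and Tgfb3 (percent), and the ratios Tgfbr1 over Tgfbr2 and Smad7 over Smad3 (vertical axes from 0). Points are libraries, triangles the 2 SMC libraries without a number, black bars the mean ± SD of 3. The Tgfbr1 to Tgfbr2 ratio was 0.19 in Scr SMCs and 0.56 in siKlf4 SMCs on average.

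Among the receptors, Tgfbr2 (ENSMUSG00000032440.13, mm10 chromosome 9, 116084293 to 116175360, minus strand), the ligand-binding type II kinase, was lower under siKlf4 in PDGFR-β+ cells. Its level was 86.0, 76.1 and 85.7 TPM under Scr and 70.8, 67.0 and 67.2 TPM under siKlf4, without overlap, a log2 fold change of -0.27 ± 0.08 (adjusted p = 0.0253, limma). That call was lost in the single fit of 12 libraries (adjusted p = 0.107) and when Scr replicate 1 or 3 or siKlf4 replicate 2 or 3 was left out (up to 0.0862). In SMCs it stood at 153, 124 and 111 TPM under Scr and 110, 82.5 and 85.4 TPM under siKlf4. These groups did not overlap either, but the log2 fold change of -0.48 ± 0.15 had an adjusted p of 0.0517. It was -0.48 both with the numbered libraries alone (adjusted p = 0.0131) and between the libraries without a number. Tgfbr2 passed as lower in SMCs in 7 of 10 alternatives, such as median-ratio scaling (adjusted p = 0.0469, limma) and quantile normalization (0.0329). The adjusted p reached 0.114 in the alternatives, and 2 of 6 fits that left out a library passed.

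The ratio of the kinase transcripts moved with Tgfbr1. Tgfbr1 over Tgfbr2 was 0.149, 0.184 and 0.229 in Scr SMCs and 0.435, 0.662 and 0.569 in siKlf4 SMCs, 2.97-fold higher on average. In PDGFR-β+ cells it was 0.321, 0.271 and 0.271 under Scr and 0.257, 0.235 and 0.224 under siKlf4, 1.21-fold lower. The groups did not overlap in either cell type (exact permutation p = 0.1 in each, the smallest possible).

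Tgfbr3 (ENSMUSG00000029287.14, mm10 chromosome 5, 107106570 to 107289629, minus strand), the betaglycan co-receptor, fell in PDGFR-β+ cells from 158, 119 and 136 TPM to 101, 67.0 and 72.2 TPM. The groups did not overlap, at a log2 fold change of -0.79 ± 0.17 (adjusted p = 0.00834, limma). In SMCs its level was 501, 409 and 377 TPM under Scr and 391, 301 and 303 TPM under siKlf4. These groups overlapped, because the siKlf4 library without a number (391 TPM) exceeded 1 Scr library (377 TPM), and the log2 fold change of -0.37 ± 0.14 did not pass (adjusted p = 0.0900). It was -0.38 with the numbered libraries alone (adjusted p = 0.0125) and -0.36 between the libraries without a number.

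Eng (ENSMUSG00000026814.16, mm10 chromosome 2, 32646595 to 32682669, plus strand), the endoglin co-receptor, rose in SMCs from 81.4, 102 and 96.2 TPM to 124, 127 and 125 TPM, without overlap, at a log2 fold change of 0.43 ± 0.09 (adjusted p = 0.0140, limma). The change was 0.34 with the numbered libraries alone (adjusted p = 0.0141) and 0.60 between the libraries without a number, and the adjusted p was 0.0528 without siKlf4 replicate 2. In PDGFR-β+ cells its level was 192, 199 and 166 TPM under Scr and 217, 201 and 187 TPM under siKlf4, which overlapped, at 0.12 ± 0.09 (95% confidence interval -0.09 to 0.34, adjusted p = 0.316). Eng is also abundant in endothelium, whose 7 markers summed to 1.62 to 4.08 TPM in Scr SMCs, 3.87 to 4.42 in siKlf4 SMCs and 14.1 to 18.5 TPM in PDGFR-β+ libraries. In PDGFR-β+ cells this sum was mostly Kdr (15.3 TPM under Scr and 12.5 TPM under siKlf4 on average), followed by Tek (1.33 and 2.55 TPM). Pecam1, Cdh5, Vwf and Emcn averaged under 1 TPM in every group. In SMCs Kdr rose from 0.663 to 2.88 TPM on average, and Emcn reached 1.42 TPM in 1 Scr library. Cldn5 was at 0 in all 12 libraries. Fpgs overlaps Eng on the opposite strand at 15.2 TPM in Scr SMCs, 15.3 in siKlf4 SMCs, 14.4 in Scr PDGFR-β+ cells and 17.9 TPM in siKlf4 PDGFR-β+ cells.

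Of the SMADs, none passed the threshold in PDGFR-β+ cells. Smad7 (ENSMUSG00000025880.11, mm10 chromosome 18, 75367529 to 75395935, plus strand), an inhibitory SMAD that blocks the type I receptor, rose in SMCs from 9.51, 14.9 and 15.9 TPM to 19.5, 25.0 and 25.5 TPM. There was no overlap, at a log2 fold change of 0.77 ± 0.20 (adjusted p = 0.0270, limma), and the adjusted p was 0.00728 with the numbered libraries alone (0.68 log2 units), beside 0.96 between the libraries without a number. The call was lost with no filter on low values (adjusted p = 0.0692) and without siKlf4 replicate 2 or 3 (up to 0.0859). In PDGFR-β+ cells Smad7 was at 51.4, 61.7 and 47.0 TPM under Scr and 64.8, 55.6 and 58.1 TPM under siKlf4, which overlapped (0.16 ± 0.11, adjusted p = 0.295).

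Smad3 (ENSMUSG00000032402.12, mm10 chromosome 9, 63646767 to 63757994, minus strand), the receptor-activated SMAD of this set, had groups that did not overlap in either cell type, yet did not pass. In SMCs it was at 68.8, 69.2 and 60.5 TPM under Scr and 73.0, 78.4 and 74.1 TPM under siKlf4 (0.18 ± 0.08, adjusted p = 0.121, limma). In PDGFR-β+ cells it was at 56.0, 49.0 and 53.0 TPM under Scr and 58.7, 58.5 and 59.3 TPM under siKlf4 (0.16 ± 0.07, adjusted p = 0.124).

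Smad6 (ENSMUSG00000036867.7, mm10 chromosome 9, 63953076 to 64022059, minus strand) is the other inhibitory SMAD and lies 195082 bases from Smad3 on the same strand. Its groups overlapped in both cell types, at 13.3, 15.5 and 16.4 TPM against 14.7, 14.3 and 15.1 TPM in SMCs and 34.3, 48.3 and 28.0 TPM against 42.9, 33.4 and 32.3 TPM in PDGFR-β+ cells. The 95% confidence interval of its log2 fold change was -0.27 to 0.21 in SMCs and -0.47 to 0.46 in PDGFR-β+ cells, so the latter does not exclude a change of the size seen for Tgfb3.

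The balance of inhibitory to activated SMAD transcripts, Smad7 over Smad3, was 0.138, 0.216 and 0.262 in Scr SMCs and 0.267, 0.318 and 0.345 in siKlf4 SMCs, which did not overlap (exact permutation p = 0.1). In PDGFR-β+ cells it was 1.02 ± 0.21 under Scr and 1.01 ± 0.08 under siKlf4 (mean ± SD, n = 3), which overlapped. Every PDGFR-β+ library thus lay above every SMC library in this ratio.

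Other genes of the pathway were described by 4 lists, chosen with earlier results known, by their counts and medians. The shares over all genes tested stand beside all these counts. In SMCs 15.6% were higher and 12.9% lower, and in PDGFR-β+ cells 25.3% were higher and 15.3% lower. With the numbered SMC libraries alone 28.9% passed, 13.3% of genes being lower. The interaction term passed for 33.0% of genes. Of 20 genes of ligand latency and activation, 19 were tested in PDGFR-β+ cells, where 14 were lower and 1 higher (median log2 fold change -0.54, beside 0.10 for all genes tested). The lowest were Lrrc32 (-2.27, adjusted p = 8.8e-06, limma), which holds latent TGF-β at the cell surface, and Itgb6 (-1.49, adjusted p = 0.00119), a subunit of an integrin that activates it. Itgb8, a subunit of another such integrin, was the gene that was higher (0.84, adjusted p = 0.00475). Both integrin genes were near the floor. Itgb6 averaged 2.00 TPM under Scr and 0.049 TPM under siKlf4, and Itgb8 0.718 and 2.07 TPM. Each reached the filter of 1 TPM only through the group where it was higher, and both stand in the counts above. In SMCs 18 were tested, 4 higher and 2 lower (median 0.18, beside 0.02), led by Itgav (0.86) and Thbs1 (0.86), an integrin subunit and thrombospondin-1, with Ltbp4 (-0.62) and Lrrc32 (-0.44) lower. With the numbered SMC libraries alone these counts were 6 and 3. The interaction term passed for 12 of 18 genes, 11 with the higher effect in SMCs, of which Thbs1 had the largest difference (2.12, adjusted p = 4.94e-06).

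Of 30 TGF-β response genes, 29 were tested. In SMCs 12 were higher and 4 lower (median 0.40, beside 0.02), with Tspan2 (1.33, adjusted p = 0.000972, limma), a tetraspanin, among the highest, and the matrix gene Col3a1 (-1.05) and Lmcd1 (-0.78), a LIM-domain cofactor, the lowest. With the numbered SMC libraries alone, 15 were higher and 7 lower. In PDGFR-β+ cells 3 were higher and 12 lower (median -0.25, beside 0.10), or 3 and 18 after median-ratio scaling. With that scaling 2977 of all 13694 genes tested were lower, against 2098 without it. Here Lox (-2.97, adjusted p = 5.99e-05), the collagen cross-linking enzyme, was the lowest, and Angptl4 (0.75) and Skil (0.63) the highest. The interaction term passed for 18 of 29, 15 of them with the higher effect in SMCs, Lox among them (2.87, adjusted p = 1.89e-05). The list holds 3 of the smooth muscle markers (Acta2, Tagln and Cnn1). Of 8 smooth muscle markers tested, 7 were higher in siKlf4 SMCs. Among PDGFR-β+ libraries, 3 markers passed as higher under siKlf4 and 3 as lower. Des, among those lower, was near the floor, averaging 2.08 TPM under Scr and 0.756 TPM under siKlf4. Its average reached the filter of 1 TPM only under Scr, and it stands in that count. The part of the smooth muscle markers in these results was not tested.

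The 14 other SMADs and receptors of the superfamily gave 12 tested genes. Over all genes tested, 28.5% were called in SMCs and 40.6% in PDGFR-β+ cells, at medians of 0.02 and 0.10. In PDGFR-β+ cells 6 were higher and 2 lower (median 0.37), with Acvr1b (1.12, adjusted p = 4.67e-05, limma), an activin type I receptor, and Bmpr1b (0.70), a BMP type I receptor, the highest and Bmpr2 (-1.42, adjusted p = 8.38e-05), the BMP type II receptor, and Acvr1 (-0.40) the lowest. In SMCs 2 were higher, Bmpr1b (0.77) and Acvr2a (0.38), and 2 lower, Acvr1b (-0.30) and Smad1 (-0.33), at a median of -0.04. Bmpr1b was thus called higher in both cell types, and Acvr1b in opposite directions (interaction -1.42, adjusted p = 1.66e-06).

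Of 20 adaptors, corepressors and turnover genes, 5 were higher and 2 lower in SMCs (median 0.20, beside 0.02). In PDGFR-β+ cells 6 were higher and 4 lower (median 0.10, the same as over all genes tested). Over all genes tested, 15.6% were higher and 12.9% lower in SMCs, and 25.3% and 15.3% in PDGFR-β+ cells. In SMCs the highest were Fkbp1a (0.84, adjusted p = 0.0414, limma), an immunophilin that binds the type I receptor, and Skil (0.76), a SMAD corepressor, and the lowest were the deubiquitinase Usp11 (-0.64) and the corepressor Ski (-0.22). In PDGFR-β+ cells Smurf2 (0.84, adjusted p = 0.000199), a ubiquitin ligase for receptors and SMADs, and Bambi (0.78), a pseudoreceptor, were the highest, and Ldlrad4 (-0.83) and Wwp1 (-0.78) the lowest. Ldlrad4, Skil, Pmepa1 and Ltbp2 each stand in 2 of the lists.

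**Figure D4:**
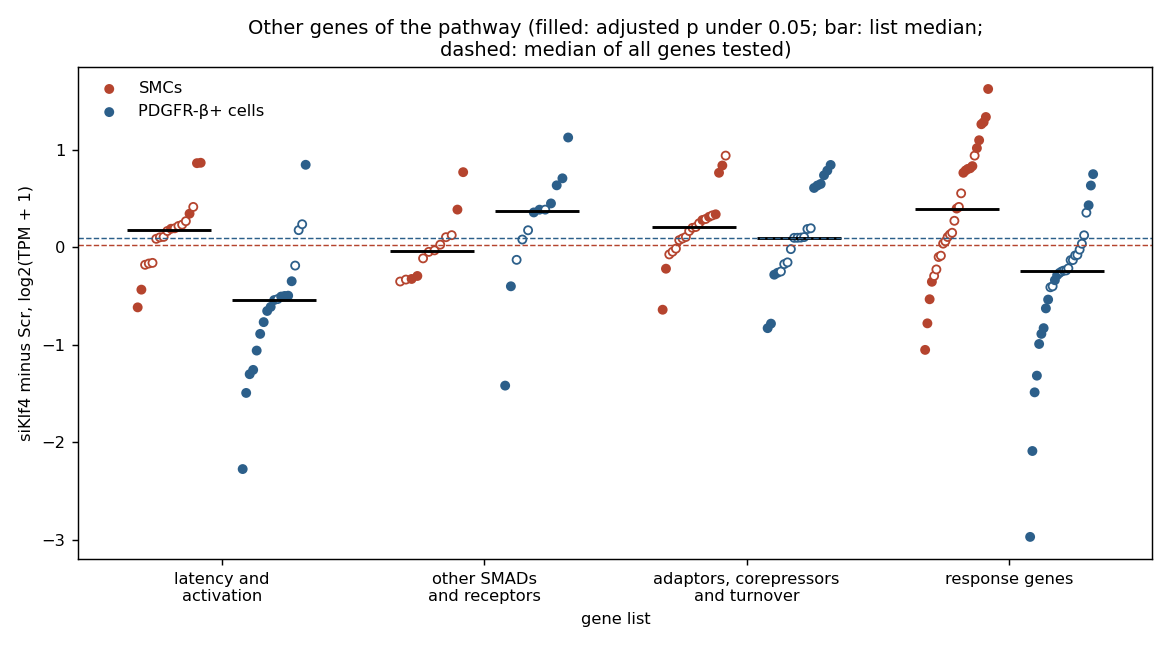
Difference between siKlf4 and Scr in log2(TPM + 1) (vertical axis) for every tested gene of the 4 pathway lists, by cell type. Filled points passed an adjusted p of 0.05, black bars are list medians and dashed lines the medians over the whole tables, 0.02 for SMCs and 0.10 for PDGFR-β+ cells. The latency list has a median of 0.18 for SMCs and -0.54 for PDGFR-β+ cells.

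Markers of other cells were as follows. The 7 macrophage markers summed to 45.5 to 49.5 TPM in Scr SMCs, 24.9 to 29.6 TPM in siKlf4 SMCs and 29.0 to 37.0 TPM in PDGFR-β+ libraries, mostly as Cd14, Lyz2 and Cd68, while Adgre1 was at 0 in all SMC libraries and Ptprc averaged at most 0.244 TPM in any group. No epithelial marker reached 1 TPM in any library. In bulk RNA, fewer cells of a type and less RNA per cell cannot be told apart.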

How the data were processed

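Per the paper's methods and the submitters' processing notes, the authors aligned stranded paired-end reads to mm10 (HISAT2, GENCODE annotation) and took abundances from StringTie; DESeq2, which the notes also name, was run on counts not used here. The authors deposited TPM, 1 table for each cell type with replicates kept apart, and each library summed to 1000000. With a fixed total, abundant genes that rise push the others down, and depth is lost, so precision rests on 3 libraries a group. The GENCODE release and the strand setting of the counting are not given in the sources used here. All library columns were used (0 left out); the 2 SMC columns without a number were assigned to their groups only.

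Here log2(TPM + 1) was fitted with limma 3.58.1 in R 4.3.3 (lmFit, eBayes with trend), two-sided, Benjamini-Hochberg over genes averaging 1 TPM or more, at 0.05, separately by cell type. The interaction term used all 12 libraries and genes reaching 1 TPM in both tables. The fits were tested on simulated data. Named genes were the 10 members, Klf4, the 3 genes most like Tgfb1, and at most the 2 highest and 2 lowest called genes of a list with groups apart. A gene of the response list that the rule would name is not reported here. Pdgfrb, Pdgfra, Dcn, Col1a1, Col3a1, Cspg4, Notch3, Kcnj8, Abcc9, Rgs5, Acta2, Tagln, Cnn1, Myh11, Smtn, Des and Myocd were named as markers. So were Kdr, Tek, Pecam1, Cdh5, Vwf, Emcn, Cldn5, Cd14, Lyz2, Cd68, Adgre1 and Ptprc. The members and lists were chosen with earlier results of these data known, so counts over them are descriptions. Positions come from GENCODE M21 (GRCm38), which holds 49035 of the 52636 identifiers; promoter windows come from RefSeq, with an entry for 7 of the 10 genes.

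Alternatives were a pseudocount of 0.1, no filter, a minimum mean of 5 TPM, median-ratio and quantile scaling, eBayes without trend, single or separate fits, a replicate block, a covariate for how SMC columns were named, the numbered SMC libraries alone, a minimum log2 change of 1, and leaving out each library.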

Additional observations from a re-analysis of the deposited data

Results flagged for a closer look

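By the interaction term, 2 of the 10 genes responded differently to siKlf4 in the 2 cell types, where 33.0% of the 13032 genes tested passed. For Tgfb1 the effect in SMCs minus that in PDGFR-β+ cells was 1.78 log2 units, from 0.93 and -0.85, with all 3 siKlf4 libraries above the Scr libraries in the former and all 3 below them in the latter. For Tgfbr1 it was 1.57, from 1.06 and -0.51, with the same separation. Both passed the threshold in all 9 alternatives (limma, adjusted p up to 0.000728 for Tgfb1 and 0.00166 for Tgfbr1) and in all 12 fits that left out a library. Cell type goes with source, culture, table and the size of the Klf4 change, so these cannot be told apart. Klf4 itself changed by -2.16 log2 units in SMCs and -3.35 in PDGFR-β+ cells. That difference was 1.19 ± 0.19 (SE, adjusted p = 0.00069, limma), and its part in these results was not tested. No group of 3 libraries was tested for outlying samples.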

How the results depend on the processing

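The count of the 10 genes passing in SMCs was 5, and it was 3 with no filter on low values (Tgfb3 and Smad7 lost), 8 with a term for the naming of the columns and 8 with the numbered libraries alone (Tgfb2, Tgfbr2 and Tgfbr3 gained as lower in both), 1 when a log2 change of at least 1 was also asked, and 2 to 7 when a library was left out: 2 without siKlf4 replicate 2, 3 without siKlf4 replicate 3 and 7 without the siKlf4 library that has no number. The count was 6 with a minimum mean of 5 TPM and 6 with median-ratio scaling, where Tgfbr2 was gained as lower. Calls over all genes tested in SMCs moved too, from 3910 of 13709 in the main fit to 2944 of 25992 with no filter. A minimum mean of 5 TPM gave 3529 of 10866 calls, and median-ratio scaling 3860 of 13709. They were 5492 of 13709 with the naming term and 3965 of 13743 with the numbered libraries alone. Without siKlf4 replicate 2 they were 2216 of 13711, and without siKlf4 replicate 3, 2342 of 13725. Without the siKlf4 library that has no number they were 3212 of 13743. In PDGFR-β+ cells the count of the 10 genes was 6, and 1 with a log2 change of at least 1. It was 4 to 6 when a library was left out, where 4207 to 5298 of all genes tested passed, against 5559 with none left out. The interaction count was 2, and 4 with median-ratio scaling (Eng and Smad7 gained, adjusted p of 0.0303 and 0.0482, limma). It was 2 or 3 in the other alternatives, where Smad7, Eng or Tgfbr3 was gained. The count of Scr levels without overlap was 9 in every alternative. Of 510 single-gene values under the alternatives, 449 kept their direction and side of the threshold, 25 gained the threshold, 20 lost it and 16 turned sign. Signs turned only for changes that never passed. The Smad6 change in PDGFR-β+ cells was 0.000153 with a pseudocount of 0.1, and -0.18 to 0.21 when a library was left out, against -0.11 to 0.031 in SMCs. The Tgfb3 difference between the cell types was 0.021 with median-ratio scaling (-0.17 to 0.0048 leaving out a library), that of Smad6 0.050 with median-ratio and 0.043 with quantile scaling (-0.24 to 0.15), and that of Smad3 -0.038 to 0.074 leaving out a library. The causes of these changes were not tested.

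Samples with the same replicate number did not deviate together in PDGFR-β+ cells (correlations of 0.07, -0.02 and 0.00). In SMCs the correlations were 0.19 and 0.20 for the numbered pairs and 0.36 for the pair without a number, a hint from the data and not from the design. With the replicate block, 6 genes passed in PDGFR-β+ cells, 6 among the numbered SMC libraries (8 without the block; the adjusted p was 0.0514 for Tgfb2 and 0.0526 for Tgfb3) and 3 in the interaction. TPM keeps no depth, so what depth limits could not be assessed.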
